A study of Mus musculus with 24 samples.

Results

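The 10 genes described here encode transporters that move amino acids across the plasma membrane. They were chosen by name (Slc7a11, Slc7a5, Slc3a2, Slc7a1, Slc7a3, Slc6a9, Slc38a2, Slc1a4, Slc1a5 and Slc43a1) from the 54242 gene symbols of an RNA-seq table of mouse CGR8 embryonic stem cells (ESCs), and all 10 were found there once. The study asked what the loss of RSL24D1, a factor of large ribosomal subunit biogenesis, does to the programs of ESCs. The 24 libraries form 8 groups of 3, by siRNA (si-CTL, a control, or si-Rsl24d1), by rescue (without, or with doxycycline and ectopic RSL24D1) and by day. Day 0 cells were grown in 10% fetal bovine serum with LIF, the cytokine that keeps ESCs undifferentiated. Day 4 cells were treated for 4 days with 10 nM retinoic acid (RA). Per the paper's methods LIF was withdrawn for these days, whereas the design text names LIF beside RA, so that RA, the loss of LIF and time in culture cannot be told apart. All groups were of 1 line, CGR8, and received 1 of the 2 siRNAs. The paper's methods describe the rescue cells as a puromycin-selected population with a doxycycline-inducible Rsl24d1 open reading frame, whereas the labels give cells without rescue an empty vector, so that rescue, doxycycline and vector cannot be told apart. Labels and methods also differ on the medium, on the library kit (poly-A or stranded total RNA) and on the time after transfection (48 or 72 h). The sources describe the 3 libraries of a group as independent biological replicates, all of this 1 line.

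Cells take up amino acids through transporters that differ in their substrates and in what drives them. LAT1 and xCT are light chains (Slc7a5 and Slc7a11) that reach the membrane only when bound to the heavy chain 4F2hc (Slc3a2), and they exchange large neutral amino acids or cystine for others. CAT-1 and CAT-3 (Slc7a1 and Slc7a3) carry arginine and lysine, GLYT1 (Slc6a9) carries glycine, SNAT2 (Slc38a2) carries small neutral amino acids with sodium, ASCT1 and ASCT2 (Slc1a4 and Slc1a5) exchange neutral amino acids such as serine and glutamine, and LAT3 (Slc43a1) lets large neutral amino acids pass along their gradient. Many of these genes are known targets of ATF4, the transcription factor of the amino acid response, which binds DNA with C/EBP proteins at composite elements with the core TGATGNAA, where N is any base.

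That core was searched on both strands of the RefSeq promoters (GRCm38.p6), which run from 250 bases before to 50 bases after a start site. Of the 10 genes, 7 had promoters in this set, 10 windows in all, and Slc7a5, Slc7a3 and Slc1a5 had none. The 2 genes with a match are shown because they carry the core next to the start site, with the matches in capitals. No other motif was searched. In Slc7a11, 30 bases from -67 to -38 relative to the start site (chr3:50443651-50443680, minus strand) hold 1 match on each strand. In Slc1a4, 30 bases from -25 to 5 (chr11:20332709-20332738, minus strand) hold 1 match on the opposite strand, which crosses the start site.
Slc7a11: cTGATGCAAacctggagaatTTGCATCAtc
Slc1a4: gcctccagcgtgcctcctgcgTTGCATCAt
All 3 matches read TGATGCAA on their strand. Slc3a2, Slc7a1, Slc6a9, Slc38a2 and Slc43a1 had no match in their windows. Over all 32851 windows, 3.97% held the core, and among 20 amino acid response genes that are no transporters, 18 had promoters and 5 of these held it (Asns, Chac1, Nupr1, Pycr1 and Trib3). Of the other plasma membrane transporters 2 of 35 windows held it (5.71%), both of Slc7a7, and of the organelle transporters and the genes of the cystine and glutathione route 0 of 25 and 0 of 12. A match describes these letters only and is no evidence of binding.

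The table holds log2(TPM + 1). TPM gives a level per transcript length that sums to 1000000 in each library, which hides the read number, and the depth is unknown. Levels are given below in TPM, which can be compared between genes, and differences on the log2(TPM + 1) scale, where changes of weakly expressed genes come out smaller. Groups were compared with limma over the 16447 genes whose mean log2(TPM + 1) reached 0.5, and a gene counted as called if its adjusted p (Benjamini-Hochberg) was below 0.01 and it changed more than 1.8-fold, or 0.848 on the log2 scale. The other 9 members were above this level in every group. Slc7a11 was below it in every library and was not tested, so its values are given without a call. These are bulk RNA samples, in which fewer cells of a type and less RNA per cell cannot be told apart.

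Rsl24d1 was at 141 ± 6.08 TPM (SD, n = 3) in si-CTL and 35.7 ± 2.72 TPM in si-Rsl24d1 cells at day 0, and at 151 ± 5.87 and 107 ± 13.1 TPM with rescue. At day 4 it was at 97.9 ± 2.74 TPM in si-CTL cells and 95.1 ± 5.33 TPM in cells labelled si-Rsl24d1, a difference of -0.04 with an adjusted p of 0.66 from limma, so a knockdown was no longer measurable in the RNA at that day. Marker genes were read as a check of the labels. The 8 pluripotency markers were present in every group, and the summed TPM of 7 RA response markers was 18.8 to 22.7 over the day 0 libraries and 51.0 to 70.8 over those of day 4. None of the marker genes was at 0 in all 3 libraries of a group, apart from the fibroblast marker Lum in both day 0 si-Rsl24d1 groups.

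In control ESCs the 10 transporters spanned a wide range of levels. The order in day 0 si-CTL cells without rescue was Slc3a2 (250 ± 6.14 TPM), Slc38a2 (169 ± 15.3), Slc7a5 (151 ± 11.1), Slc7a3 (115 ± 4.09), Slc1a5 (29.8 ± 1.47), Slc1a4 (19.3 ± 2.25), Slc7a1 (18.7 ± 2.47), Slc43a1 (8.84 ± 1.22), Slc6a9 (4.42 ± 0.27) and Slc7a11 (0.232 ± 0.054), each in TPM. Slc38a2 and Slc7a5 did not differ beyond the spread of their libraries, and neither did Slc1a4 and Slc7a1. Together the 10 genes made up 767 ± 31.8 TPM. The cystine exchanger light chain was thus at very low levels in these cells, and Slc7a3 was more abundant than Slc7a1, the other CAT gene.

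**Figure D1:**
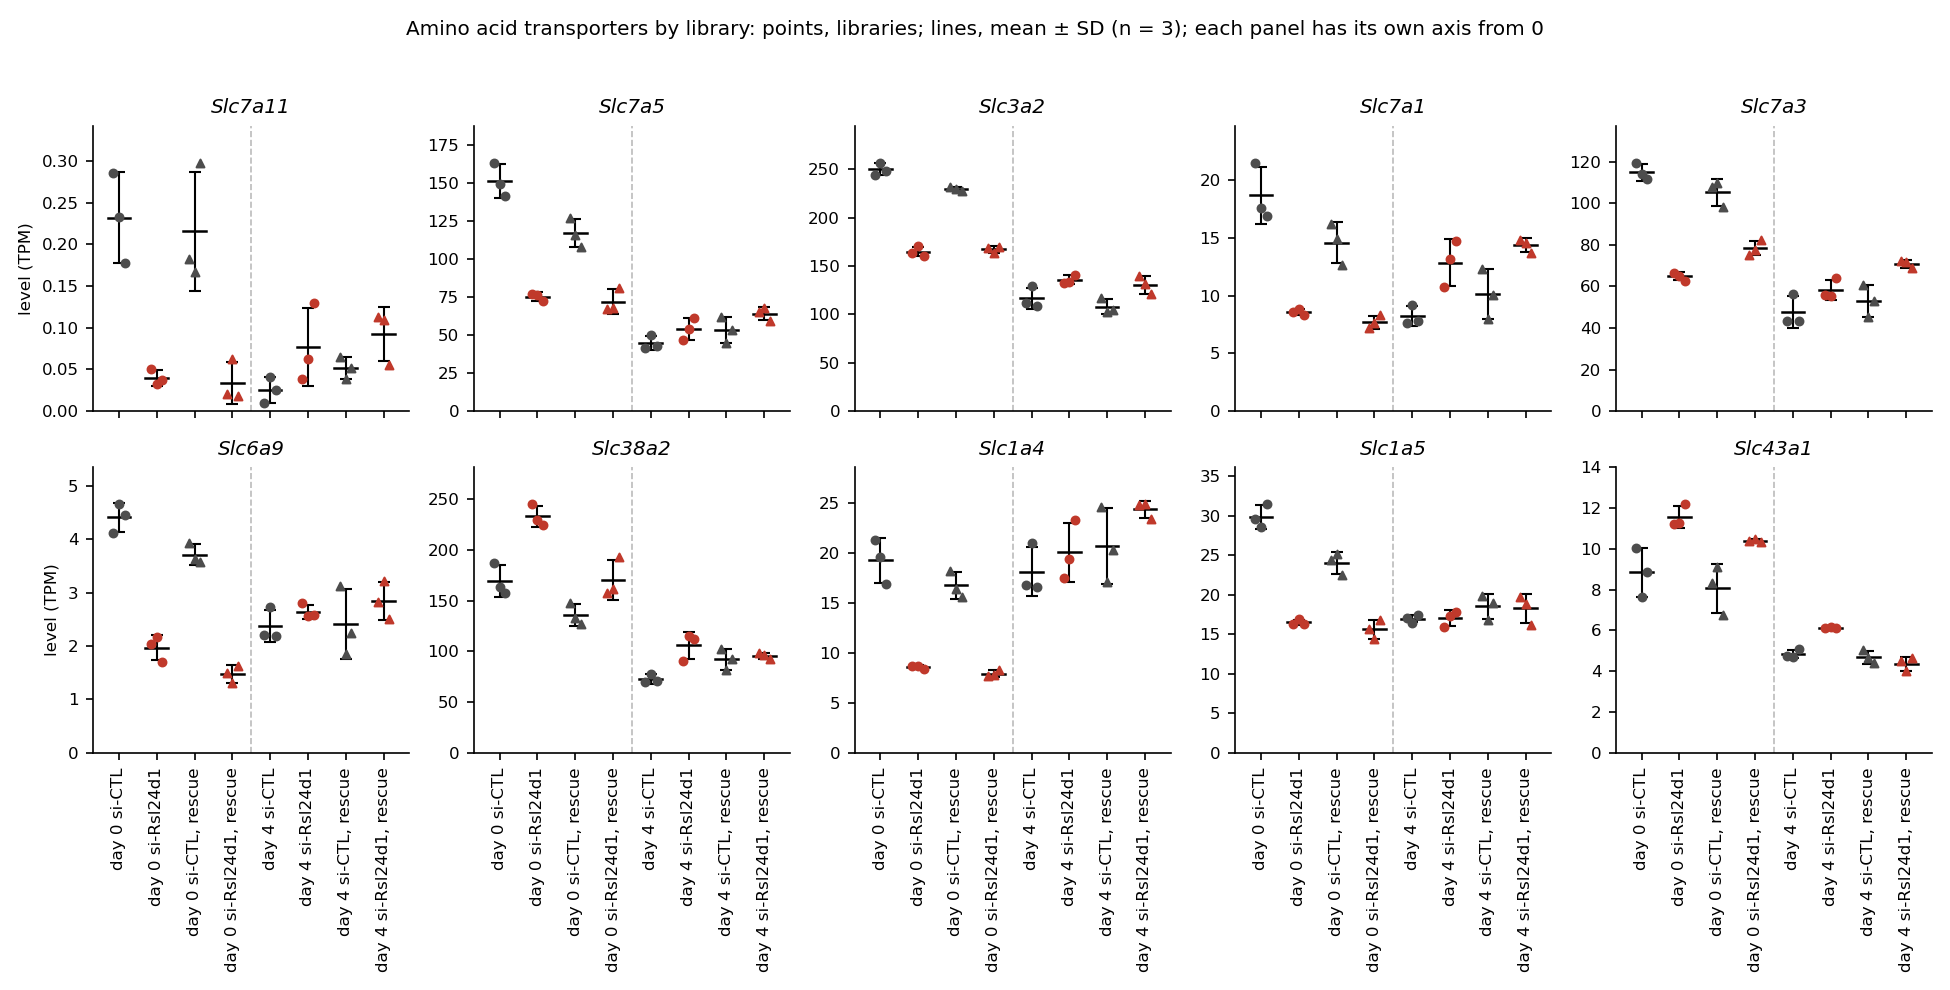
Level in TPM (y axis, from 0, a separate scale in each panel) of each of the 10 transporters in the 8 groups (x axis), with 3 libraries as points per group and the mean ± SD as lines. Grey marks si-CTL, red si-Rsl24d1, circles no rescue and triangles rescue. At day 0 the red points lie below the grey ones of the same rescue state for 8 genes and above them for Slc38a2 and Slc43a1.

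Without rescue at day 0, the si-Rsl24d1 cells had less RNA of most amino acid transporters and more of 2. Of the 9 genes tested, Slc1a4, Slc7a1, Slc7a5 and Slc6a9 were called lower and 0 were called higher, where 0.772% of all genes tested were called lower. All 9 passed the adjusted p alone, 7 lower and 2 higher, compared with 30.4% of all genes in either direction. The 3 si-Rsl24d1 libraries lay outside the range of the 3 si-CTL libraries for all 9, as they did for 51.1% of all genes. The median difference was -0.82 over the 9 genes and -0.01 over all genes tested.

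The parts of the heteromeric exchangers were lower in unequal measure. Slc7a5 (chr8:121881150-121907694, minus strand) was at 163, 149 and 141 TPM in the si-CTL libraries and at 77.2, 76.3 and 72.1 TPM in the si-Rsl24d1 libraries. The groups did not overlap, and the mean of the depleted cells was 49.8% of the control, a difference of -0.995 (standard error 0.11, adjusted p = 4.7e-07 from limma). Its partner Slc3a2 (chr19:8706882-8723369, minus strand) was at 245, 257 and 249 TPM against 164, 171 and 161 TPM. The heavy chain was thus at 66.0% of the control, a difference of -0.60 (standard error 0.06, adjusted p = 1.0e-07 from limma) that is short of the fold threshold. Slc7a11 (chr3:49892526-50443614, minus strand) was at 0.286, 0.232 and 0.177 TPM in si-CTL and at 0.051, 0.033 and 0.037 TPM in si-Rsl24d1 cells. These 2 groups do not overlap either, yet every value is under 1 TPM. With no filter on low values, Slc7a11 was tested and had a difference of -0.24 (standard error 0.04, adjusted p = 1.1e-04 from limma), which is not past 1.8-fold because 1 is added to the TPM.

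Both CAT genes, Slc7a1 and Slc7a3, were lower. Slc7a1 (chr5:148327410-148399904, minus strand) was at 21.5, 17.6 and 16.9 TPM in si-CTL and 8.63, 8.83 and 8.30 TPM in si-Rsl24d1 libraries. That is 45.9% of the control, and a difference of -1.03 (standard error 0.13, adjusted p = 1.7e-06 from limma). Slc7a3, an X-linked gene (chrX:101079210-101086020, minus strand), was at 120, 114 and 111 TPM in si-CTL and 66.6, 65.2 and 62.8 TPM in si-Rsl24d1 libraries. Its difference of -0.82 (standard error 0.10, adjusted p = 8.6e-07 from limma) just missed the fold threshold. In TPM, Slc7a3 lost more than Slc7a1 had at the start, since it was the more abundant of the pair.

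Of the sodium-dependent neutral amino acid exchangers, Slc1a4 (chr11:20302180-20332713, minus strand) was at 21.4, 19.6 and 16.9 TPM in the control libraries and 8.66, 8.69 and 8.40 TPM in the depleted ones. This was the lowest log2 difference of the 9 genes tested, at 44.5% of the control level (difference -1.08, standard error 0.12, adjusted p = 2.8e-07 from limma). Slc1a5, the glutamine carrier (chr7:16781340-16798274, plus strand), was at 29.6, 28.5 and 31.4 TPM in the control and 16.3, 16.9 and 16.3 TPM in the depleted libraries, without overlap. The difference of -0.82 (standard error 0.07, adjusted p = 2.0e-08 from limma) was not past the fold threshold. The glycine transporter Slc6a9 (chr4:117834506-117875198, plus strand) was weakly expressed, at 4.13, 4.66 and 4.46 TPM in the control and 2.03, 2.16 and 1.70 TPM in the depleted libraries. It was called lower with a difference of -0.87 (standard error 0.11, adjusted p = 2.1e-06 from limma), close to the threshold. The call was lost without si-CTL replicate 2 (-0.84), without si-Rsl24d1 replicate 3 (-0.81) and with 2 added to the TPM (-0.69). Exons of Slc6a9 share 1429 bases with those of Ccdc24 and 46 bases with those of B4galt2, both on the opposite strand, and the kit is not settled, so reads of these genes may not have been told apart.

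Slc38a2 and Slc43a1 went the other way. Slc38a2 (chr15:96687392-96699730, minus strand) was at 187, 163 and 158 TPM in si-CTL and 245, 230 and 225 TPM in si-Rsl24d1 libraries, above every control. Its mean was 138% of the control, and the difference of 0.46 (standard error 0.10, adjusted p = 7.2e-04 from limma) passed the adjusted p and not the fold threshold. With this, Slc38a2 moved ahead of Slc3a2 as the most abundant member in these cells. Slc43a1 (chr2:84838850-84863594, plus strand) was at 10.1, 7.62 and 8.86 TPM in the control and 11.2, 11.3 and 12.2 TPM in the depleted libraries. This was 131% of the control, a difference of 0.36 (standard error 0.09, adjusted p = 0.0029 from limma). The sum of the 10 genes was 586 ± 16.3 TPM, 76.4% of that in control cells.

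**Figure D2:**
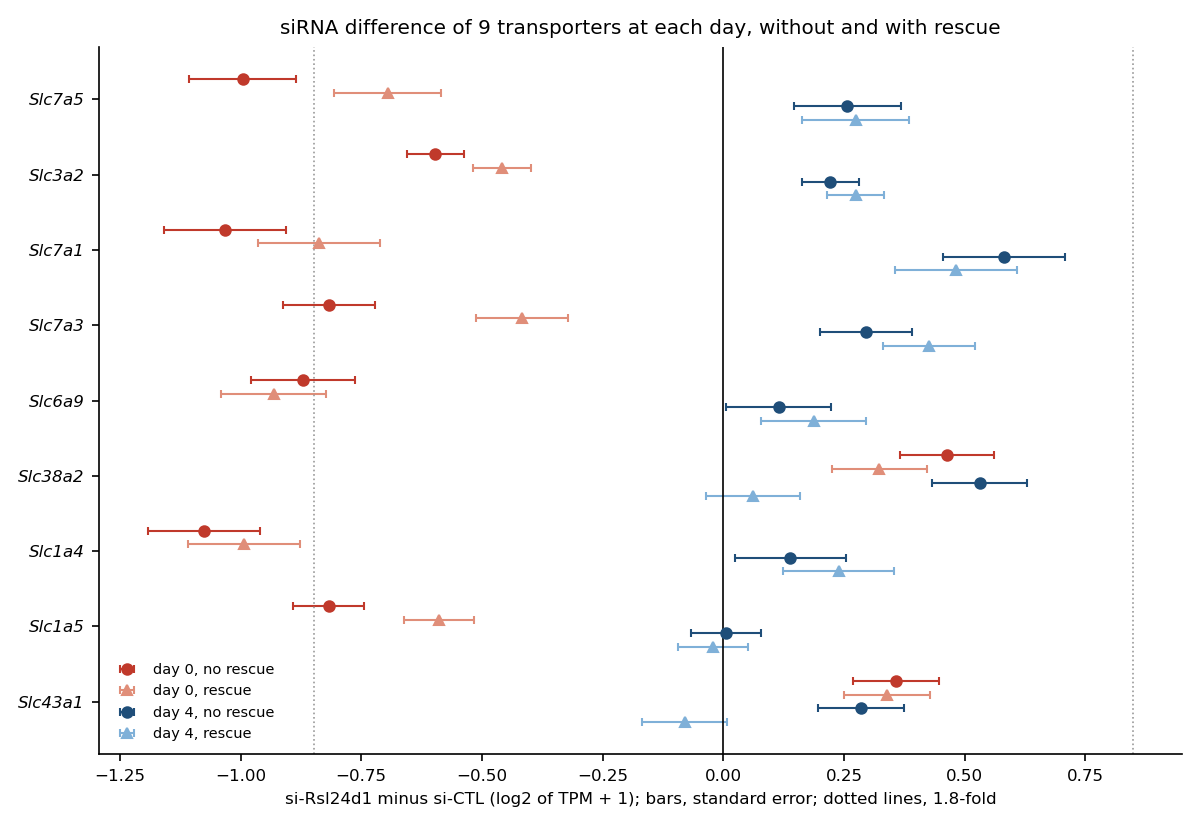
Difference between si-Rsl24d1 and si-CTL cells (x axis, log2 of TPM + 1, with the standard error as bars) for the 9 genes tested (y axis), at day 0 in red and day 4 in blue, without rescue as circles and with rescue as triangles; dotted lines mark 1.8-fold. The red symbols of 7 genes lie between -1.08 and -0.42, those of Slc38a2 and Slc43a1 are above 0, and no blue symbol is beyond a dotted line.

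Pluripotency markers moved with the transporters at day 0. Their summed TPM was 2461 to 2518 over the si-CTL libraries and 1762 to 1804 over the si-Rsl24d1 libraries without rescue, 7 of the 8 genes were lower at the adjusted p alone, and Nr0b1 (-1.14), Esrrb (-1.09) and Zfp42 (-0.96) were called lower. With rescue the sum was 2284 to 2386 over the si-CTL and 1927 to 2019 over the si-Rsl24d1 libraries, with 5 of the 8 genes lower at the adjusted p alone. The part of this in the transporter differences was not tested.

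With rescue, the comparison of si-Rsl24d1 with si-CTL cells asks what remains of the difference when ectopic RSL24D1 is induced. Rsl24d1 RNA was at 70.6% of the control there, against 25.3% without rescue. Slc6a9 and Slc1a4 were called lower, where 0.188% of all genes were, and 8 of the 9 genes passed the adjusted p alone (7 lower and 1 higher), compared with 13.7% of all genes. The 3 libraries of each siRNA were separate for all 9, as for 33.0% of all genes. The median difference was -0.59 over the 9 genes and 0.00 over all genes.

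Slc1a4 was at 18.2, 16.4 and 15.6 TPM in rescued si-CTL and 7.68, 7.75 and 8.31 TPM in rescued si-Rsl24d1 libraries. Its difference of -0.99 (standard error 0.12, adjusted p = 2.5e-06 from limma) was 92.3% of that without rescue. Slc6a9 was at 3.94, 3.64 and 3.57 TPM against 1.49, 1.30 and 1.64 TPM, a difference of -0.93 (standard error 0.11, adjusted p = 2.5e-06 from limma), which with 2 added to the TPM was -0.72 and no longer called. Slc7a1 was at 16.2, 14.9 and 12.7 TPM against 7.18, 7.60 and 8.29 TPM and had a difference of -0.84 (standard error 0.13, adjusted p = 5.8e-05 from limma), just short of the fold threshold. The call of Slc7a1 depended on the setting. Among others, it was gained with median of ratios scaling (-0.87) and without replicate 3 of rescued si-CTL (-0.93) or of rescued si-Rsl24d1 (-0.89). In all 3 genes the rescued si-Rsl24d1 libraries lay far below the rescued controls.

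The difference with rescue, as a share of that without, ran from 51.1% to 107% over the 9 genes. Slc7a5 was at 127, 116 and 108 TPM in rescued si-CTL and 67.1, 67.5 and 81.2 TPM in rescued si-Rsl24d1 libraries, a difference of -0.69 (standard error 0.11, adjusted p = 1.1e-04 from limma). Slc3a2 was at 232, 230 and 228 TPM against 168, 163 and 170 TPM, a difference of -0.46 (standard error 0.06). Slc7a3 was at 108, 110 and 98.0 TPM against 75.3, 77.8 and 82.4 TPM, and its difference of -0.42 (standard error 0.10, adjusted p = 0.0031 from limma) had the lowest share of the 9 genes. Slc1a5 had a difference of -0.59 (standard error 0.07). On the other side, Slc43a1 had a difference of 0.34 (standard error 0.09, limma's adjusted p = 0.0085), and Slc38a2 had a difference of 0.32 with an adjusted p of 0.022 from limma. Slc7a11 was at 0.183, 0.167 and 0.298 TPM in rescued si-CTL and 0.021, 0.062 and 0.018 TPM in rescued si-Rsl24d1 cells, again without overlap.

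Whether the siRNA difference itself changed with rescue was tested as an interaction. Limma called 0 of the 9 genes in it, compared with 0.128% of all genes, 0 passed the adjusted p alone (2.09% of all genes), and 2 were at an unadjusted p under 0.05. The highest value was that of Slc7a3, 0.40 (standard error 0.13, limma's adjusted p = 0.097), and the lowest that of Slc38a2, -0.14 (standard error 0.14, adjusted p = 0.69 from limma). For Rsl24d1 the interaction was 1.45 (standard error 0.10, adjusted p = 1.3e-07 from limma). These p-values do not show that the transporter differences were the same with and without rescue.

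The rescue was also compared within each siRNA at day 0. In si-Rsl24d1 cells, limma called 0 of the 9 genes, against 0.28% of all genes in either direction, and 3 were at an unadjusted p under 0.05. Slc38a2 alone passed the adjusted p, as did 15.3% of all genes. It was at 157, 161 and 194 TPM with and 245, 230 and 225 TPM without rescue, a difference of -0.45 (standard error 0.10, adjusted p = 0.0022 from limma), beside a median of -0.11 over all genes. Slc7a3 was at 78.5 ± 3.59 TPM with and 64.9 ± 1.93 TPM without rescue, separate by library, with an adjusted p of 0.038 from limma. Slc7a5, at 72.0 ± 8.04 TPM with and 75.2 ± 2.77 TPM without rescue, overlapped, and Slc1a4 and Slc7a1 were at 92.2% and 89.6% of their levels without rescue. The differences of Slc7a5, Slc1a4 and Slc1a5 in this comparison (-0.07, -0.11 and -0.08) changed sign under median of ratios scaling.

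In si-CTL cells the rescue is meant to add ectopic RSL24D1 to the endogenous one. Rsl24d1 RNA was at 151 ± 5.87 TPM with and 141 ± 6.08 TPM without rescue, and the libraries overlapped. Its difference of 0.10 did not pass the adjusted p. Limma called 0 of the 9 transporters, and 0 passed the adjusted p alone, compared with 0.0122% of all genes, while 4 were at an unadjusted p under 0.05. For 7 of the 9 genes the rescued libraries lay below all those without rescue, as for 37.6% of all genes. The median was -0.20 over the 9 genes and -0.12 over all genes tested, and median of ratios scaling moved the latter by 0.12. Slc7a5 had the lowest value, -0.37 (standard error 0.11, adjusted p = 0.029 from limma), at 77.3% of its level without rescue. Slc38a2, which was lower with rescue in si-Rsl24d1 cells, was here at 80.25% of its level without rescue, separate by library. The differences of Slc3a2, Slc7a3 and Slc43a1 (-0.12, -0.13 and -0.12) changed sign under that scaling.

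Most transporters were lower at day 4 than at day 0 in si-CTL cells. At day 4 against day 0 without rescue, Slc7a5, Slc3a2, Slc7a1, Slc7a3 and Slc38a2 were called lower, 5 of the 9 genes compared with 8.24% of all genes, and 8 were lower at the adjusted p alone, compared with 36.7%. The median difference was -1.09 over the 9 genes and -0.10 over all genes, and scaling by median of ratios moved the latter by 0.10. This comparison shares its day 0 si-CTL libraries with the siRNA comparison above, so the values of the 2 are not independent. The sum of the 10 genes was 332 ± 30.8 TPM, 43.3% of that at day 0. Cell type markers moved between the same libraries. The summed TPM of pluripotency markers was 2461 to 2518 at day 0 and 1579 to 1682 at day 4. That of fibroblast markers was 36.6 to 46.0 and 91.4 to 99.5, and that of endoderm markers 11.8 to 14.8 and 18.9 to 24.6. Neural markers went down, from 93.5 to 101 at day 0 to 37.2 to 37.6 at day 4. Of these lists, 2 pluripotency and 2 neural markers were called lower and 3 fibroblast and 2 endoderm markers higher, with 1 fibroblast marker called lower. Their part in the transporter differences between the days was not tested.

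Slc7a5 changed most, from a mean of 151 TPM to 41.8, 50.1 and 42.8 TPM, 29.7% of the day 0 level (difference -1.73, standard error 0.11, adjusted p = 4.6e-11 from limma). Slc3a2 was at 111, 129 and 109 TPM, 46.6% of day 0 (difference -1.10, standard error 0.06, adjusted p = 3.6e-12 from limma). Slc7a3, at 43.2, 56.5 and 43.3 TPM, had a difference of -1.26, and Slc38a2, at 69.6, 78.0 and 70.8 TPM, one of -1.21 (standard errors 0.10 and 0.10). Slc7a1 was at 7.67, 9.24 and 7.78 TPM (difference -1.09, standard error 0.13, adjusted p = 2.5e-07 from limma). For 8 of the 9 genes, these 5 among them, the day 4 libraries lay below all those of day 0, as for 43.5% of all genes. In contrast, Slc1a4 kept its place, at 16.8, 21.0 and 16.6 TPM against 21.4, 19.6 and 16.9 TPM, and its difference of -0.09 (standard error 0.12, adjusted p = 0.52 from limma) was 0.04 under median of ratios scaling. Slc6a9 (-0.68), Slc1a5 (-0.78) and Slc43a1 (-0.75) were lower at the adjusted p alone. Slc7a11 was at 0.010, 0.041 and 0.025 TPM at day 4, below its day 0 libraries.

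In cells labelled si-Rsl24d1 the same days gave another picture. Slc38a2 was called lower, compared with 6.22% of all genes, and Slc1a4 was called higher, compared with 7.93%. At the adjusted p alone 6 of the 9 genes passed, 4 lower and 2 higher, as did 55.8% of all genes. Slc1a4 was at 17.5, 19.4 and 23.3 TPM at day 4, above all of its day 0 libraries (8.66, 8.69 and 8.40 TPM), 234% of that level (difference 1.13, standard error 0.12, adjusted p = 4.7e-08 from limma). Slc38a2 was at 90.6, 115 and 112 TPM against 245, 230 and 225 TPM (difference -1.14, standard error 0.10, adjusted p = 3.6e-09 from limma). Slc7a1, at 10.7, 13.2 and 14.7 TPM, was higher than at day 0 at the adjusted p alone (difference 0.52, standard error 0.13, adjusted p = 0.0012 from limma). Slc7a5, at 46.5, 54.1 and 61.4 TPM, was lower by the same measure (difference -0.48, standard error 0.11, adjusted p = 8.3e-04 from limma). So were Slc3a2 (-0.28) and Slc43a1 (-0.82). Fibroblast markers summed to 27.2 to 28.3 TPM at day 0 and 173 to 241 TPM at day 4 in these cells. Neural markers summed to 93.3 to 96.3 TPM at day 0 and 49.3 to 60.55 TPM at day 4. Endoderm markers summed to 9.71 to 12.0 TPM at day 0 and 38.2 to 50.2 TPM at day 4. The part of these lists was not tested. Slc6a9 (0.30), Slc7a3 (-0.15) and Slc1a5 (0.04) did not pass the adjusted p.

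**Figure D3:**
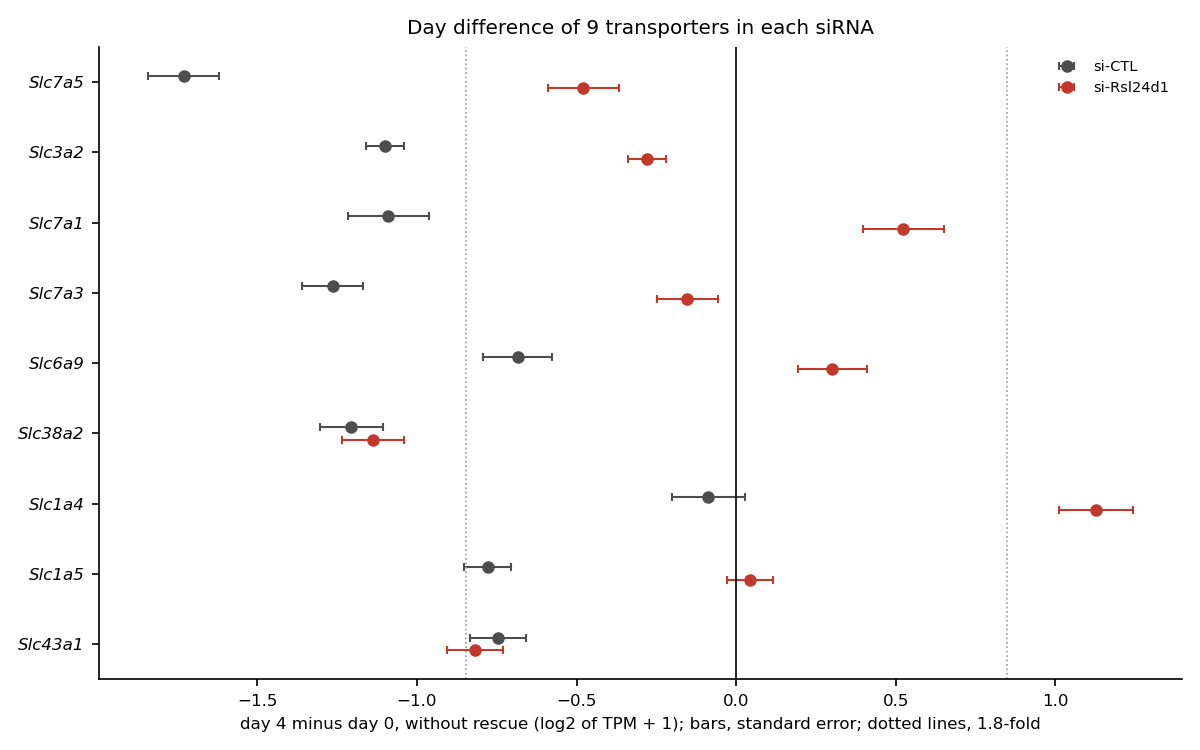
Difference between day 4 and day 0 without rescue (x axis, log2 of TPM + 1, with the standard error as bars) for the 9 genes tested (y axis), in si-CTL cells (grey) and si-Rsl24d1 cells (red); dotted lines mark 1.8-fold. The red point lies to the right of the grey one by 0.82 to 1.61 for 7 genes, and the 2 points nearly coincide for Slc38a2 and Slc43a1.

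The difference between these 2 time courses is the siRNA by day interaction, that is, the siRNA difference at day 4 minus that at day 0. Slc7a1, Slc7a5, Slc1a4, Slc7a3 and Slc6a9 were called higher in it, 5 of 9 genes compared with 2.9% of all genes, and 7 passed the adjusted p alone in that direction, compared with 22.1%. The values were 1.61 for Slc7a1 (standard error 0.18, adjusted p = 8.4e-07 from limma), 1.25 for Slc7a5, 1.21 for Slc1a4, 1.11 for Slc7a3 and 0.99 for Slc6a9. Slc1a5 and Slc3a2 had 0.82 each and passed the adjusted p alone. Slc38a2 had 0.07 (standard error 0.14, adjusted p = 0.72 from limma) and Slc43a1 had -0.07 (standard error 0.13, limma's adjusted p = 0.67), and the sign of Slc38a2 turned under median of ratios scaling (-0.085). The median over all genes was 0.14. This contrast holds the same day 0 libraries as the siRNA comparison at day 0, so the values of the 2 are not independent. Its 7 genes are those that were lower at day 0 at the adjusted p alone. For Rsl24d1 the value was 1.91, called higher. The call of Slc6a9 was lost with 2 added to the TPM (0.78).

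At day 4 itself, the cells labelled si-Rsl24d1 no longer had lower levels of any member at the adjusted p. Without rescue, limma called 0 of the 9 genes, compared with 1.63% of all genes in either direction, and 6 were at an unadjusted p under 0.05, all higher. Slc38a2, Slc7a1 and Slc3a2 passed the adjusted p alone, higher, as did 24.9% of all genes. Slc38a2 had a difference of 0.53 (standard error 0.10, adjusted p = 3.1e-04 from limma), Slc7a1 of 0.58 (standard error 0.13, adjusted p = 0.0012 from limma) and Slc3a2 of 0.22 (standard error 0.06, adjusted p = 0.0053 from limma). For these 3 genes and Slc43a1, 4 of the 9, the libraries labelled si-Rsl24d1 lay above all si-CTL libraries, as for 37.1% of all genes. The median over all genes was 0.13 here, and median of ratios scaling moved it by -0.13. Slc1a5, with 17.1, 16.4 and 17.4 TPM in si-CTL and 15.9, 17.3 and 17.8 TPM in cells labelled si-Rsl24d1, had a difference of 0.01, and the differences of Slc1a5, Slc1a4 (0.14) and Slc6a9 (0.11) turned negative with that scaling. Fibroblast markers moved with the groups at day 4, with a summed TPM of 91.4 to 99.5 over the 3 si-CTL libraries and 173 to 241 over the 3 labelled si-Rsl24d1, and endoderm markers with 18.9 to 24.6 against 38.2 to 50.2. Of the markers tested, 2 of 6 fibroblast and 3 of 5 endoderm markers were called higher, where 1.45% of all genes were. Neural markers summed to 37.2 to 37.6 TPM in the si-CTL libraries and 49.3 to 60.55 TPM in those labelled si-Rsl24d1, with 1 called higher. RA response markers summed to 51.3 to 58.65 TPM in the si-CTL libraries and 64.6 to 70.8 TPM in those labelled si-Rsl24d1. The part of these lists in the transporter differences was not tested.

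With rescue at day 4, limma again called 0 of the 9 genes (0.73% of all genes in either direction), with 4 at an unadjusted p under 0.05, all higher. Slc3a2 and Slc7a3 passed the adjusted p alone, higher, as did 2.33% of all genes. Slc7a3 was at 60.8, 45.1 and 52.9 TPM in rescued si-CTL and 72.2, 71.9 and 68.8 TPM in the cells labelled si-Rsl24d1, a difference of 0.43 (standard error 0.10, adjusted p = 0.0054 from limma). Slc3a2 was at 117, 102 and 104 TPM against 140, 131 and 121 TPM, a difference of 0.27 (standard error 0.06, adjusted p = 0.0043 from limma). For both and for Slc7a1, 3 of the 9 genes, the libraries labelled si-Rsl24d1 lay above all rescued si-CTL libraries, as for 10.8% of all genes. The median was 0.24 over the 9 genes and -0.04 over all genes. Slc38a2, with a difference of 0.06 (adjusted p = 0.75 from limma), and Slc43a1, with -0.08, overlapped between the siRNAs. The summed TPM of fibroblast markers was 115 to 133 and 148 to 162 in these groups. That of endoderm markers was 23.4 to 29.05 and 34.7 to 36.55. The part of either list was not tested.

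Read over the 8 groups, the 10 genes fell into more than 1 pattern. Slc7a5, Slc3a2 and Slc7a3 were highest in day 0 si-CTL cells without rescue, then in the rescued controls, without overlap between the libraries of these 2 groups, and in all day 4 groups they were below both. Slc7a1, Slc6a9 and Slc1a5 were highest in the same group and had their lowest mean in rescued si-Rsl24d1 cells of day 0. Slc7a11, under 1 TPM throughout, had its highest means in day 0 si-CTL cells without (0.232 TPM) and with rescue (0.216 TPM). Slc38a2 and Slc43a1 were highest in day 0 si-Rsl24d1 cells, in which every library exceeded those of the other 7 groups. Slc1a4 was lowest in the 2 depleted day 0 groups, and the other 6 groups formed a chain in which each overlapped its neighbour. Over the 8 group means Pearson's r was 0.97 between Slc7a5 and Slc7a3, 0.96 between Slc7a5 and Slc3a2, 0.95 between Slc38a2 and Slc43a1 and -0.83 between Slc1a4 and Slc43a1. These are descriptions over 8 points that share the same libraries.

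The shift between members can be read as a ratio within each library, which does not depend on the scaling of libraries. Slc38a2 TPM per Slc7a5 TPM was 1.12 ± 0.02 with si-CTL and 3.10 ± 0.08 with si-Rsl24d1 in day 0 cells lacking the rescue, and 1.16 ± 0.02 and 2.37 ± 0.03 with it. At day 4 it was 1.63 ± 0.06 in si-CTL and 1.97 ± 0.15 in cells labelled si-Rsl24d1. Slc38a2 accounted for 22.1% of the summed TPM of the 10 genes in day 0 si-CTL cells and for 39.8% in si-Rsl24d1 cells, while Slc7a5 went from 19.7% to 12.8%. The ratio of the 2 ASCT exchangers was lower at day 4. Slc1a5 TPM per Slc1a4 TPM was 1.57 ± 0.26 with si-CTL and 1.92 ± 0.03 with si-Rsl24d1 at day 0, and 0.949 ± 0.144 and 0.857 ± 0.079 at day 4, all without rescue. In day 4 si-CTL cells Slc1a5 was above Slc1a4 in 2 of the 3 libraries, and the mean under 1 rests on replicate 2 (0.784). Slc7a3 TPM per Slc7a1 TPM was 6.20 ± 0.57 with si-CTL and 7.56 ± 0.17 with si-Rsl24d1 at day 0, and 10.2 ± 0.28 in rescued si-Rsl24d1 cells. With 3 libraries a side, the lowest p of a two-sided exact permutation test is 0.1, and the siRNA difference at day 0 without rescue reached that value for each of these 3 ratios. Over the 40 such tests of 5 quantities in 8 comparisons the lowest adjusted p was 0.143.

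**Figure D4:**
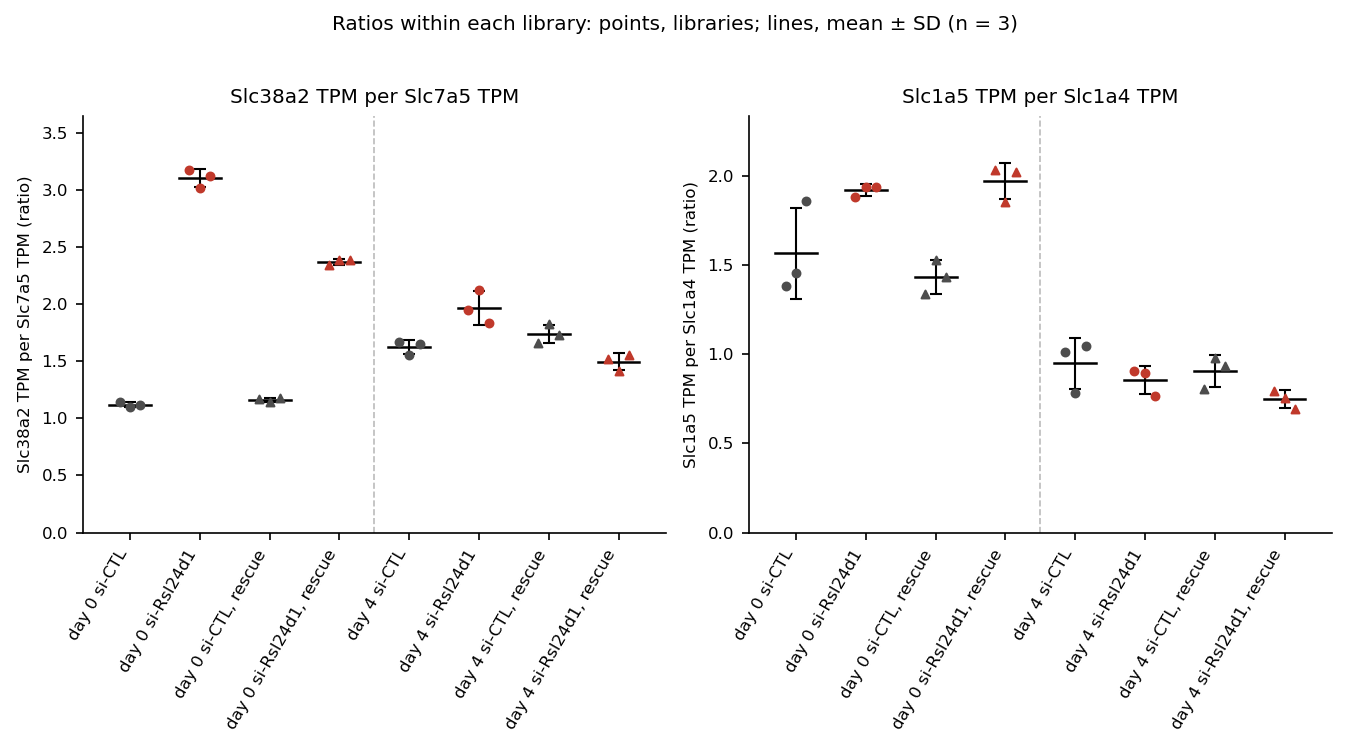
Slc38a2 TPM per Slc7a5 TPM (left, y axis as a ratio from 0) and Slc1a5 TPM per Slc1a4 TPM (right) in the 8 groups (x axis), with libraries as points and the mean ± SD as lines (n = 3). On the left both day 0 si-Rsl24d1 groups stand above all others, at 3.10 and 2.37, and on the right the day 0 libraries lie between 1.34 and 2.03 and those of day 4 between 0.693 and 1.05.

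The heavy chain has several light chains, which compete for it, and their makeup changed as well. Of the 6 light chains of 4F2hc, Slc7a5, Slc7a6 and Slc7a7 were expressed, and Slc7a8, Slc7a10 and Slc7a11 were each at 1.10 TPM or less in every library. Slc7a6 and Slc7a7 are no members and were chosen here after their values were seen. Slc7a7, whose protein y+LAT1 exports cationic amino acids, was at 114 ± 6.09 TPM in si-CTL and 148 ± 1.27 TPM in si-Rsl24d1 cells at day 0 without rescue, a difference of 0.38 (standard error 0.09, adjusted p = 0.0028 from limma). Slc7a6 had a difference of -0.31 (standard error 0.08, adjusted p = 0.0049 from limma). Slc7a5 thereby went from 49.5 ± 0.60% of the light chain TPM to 29.4 ± 0.88%, and with rescue from 45.9 ± 1.77% to 32.1 ± 0.68%. At day 4 it made up 39.5% to 43.9% in the si-CTL and 37.5% to 43.3% in the libraries labelled si-Rsl24d1, which overlap. The light chains summed to 305 ± 19.4 TPM in day 0 si-CTL cells against 250 TPM of Slc3a2, and to 107 ± 5.91 TPM against 117 TPM of Slc3a2 at day 4. Slc7a7 was called lower between these days, with a difference of -1.89 (standard error 0.09, adjusted p = 1.1e-12 from limma).

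**Figure D5:**
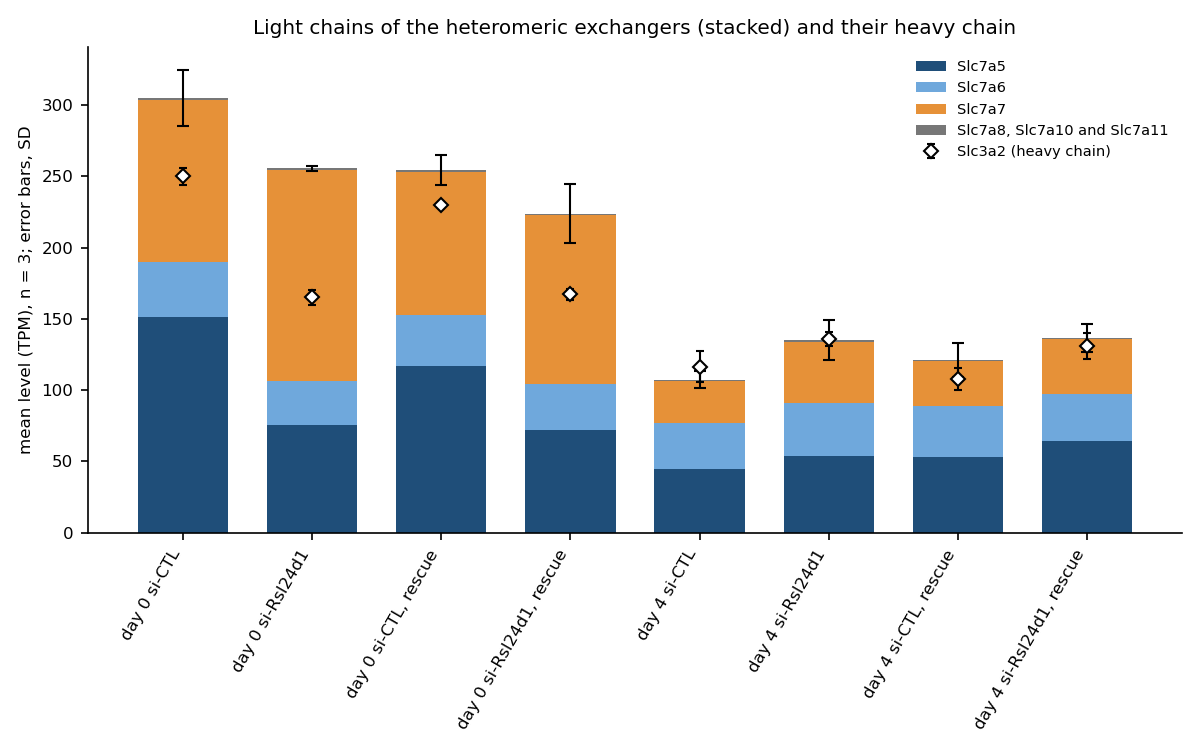
Mean TPM (y axis, from 0) of the light chains of the heteromeric exchangers, stacked, and of the heavy chain Slc3a2 (diamonds) in the 8 groups (x axis), with the SD of the sum and of Slc3a2 as error bars (n = 3). The Slc7a5 part is smaller in si-Rsl24d1 than in si-CTL cells at day 0 while the Slc7a7 part is larger, and Slc7a7 shrinks in all day 4 groups.

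Other amino acid transporters were read from lists in the same way. Of 33 other plasma membrane transporters 20 were tested, and at day 0 without rescue 0 were called by limma, while 4 were lower and 3 higher at the adjusted p alone and the median was -0.12. Of 22 symbols listed for organelle transporters 21 were found and 16 were tested. Limma called 0 of these, with 6 lower and 1 higher at the adjusted p alone, and a median of -0.11. Of all genes, 4.18% were called, and at the adjusted p alone 16.1% were lower and 14.3% higher. At day 4 against day 0 in si-CTL cells, 5 of the former were called lower, led by Slc7a7 (-1.89), the thyroid hormone and aromatic amino acid carrier Slc16a10 (-1.23) and the neuronal neutral amino acid transporter Slc6a15 (-1.18), and 3 of the latter, the mitochondrial carriers Slc25a44 (-1.10), Sfxn1 (-0.93) and Slc25a38 (-0.89). Between these days 8.24% of all genes were called lower. Slc38a4, a system A transporter like Slc38a2, was called higher in day 4 cells labelled si-Rsl24d1 (0.86), where 1.45% of all genes were.

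The amino acid response genes that are no transporters are the nearest group for comparison. All 20 were tested. At day 0 without rescue 9 were called lower and 1 higher, and 16 were lower at the adjusted p alone. Of all genes, 0.772% were called lower, 3.4% were called higher and 16.1% were lower at the adjusted p alone. The median of the 20 was -0.82, the same to 2 decimals as that of the 9 transporters. Chac1, which degrades glutathione, had a difference of -2.91, Nupr1, a stress-induced chromatin protein, one of -2.03, and Mthfd2, a mitochondrial folate enzyme, one of -1.46. Ddit4, an inhibitor of mTORC1, was called higher (1.74). With rescue 7 were called lower and 1 higher, compared with 0.188% and 1.17% of all genes. Between the days in si-CTL cells 7 were called lower (8.24% of all genes), led by Cth (-1.82), Trib3 (-1.79) and Chac1 (-1.79). The 2 called higher, where 6.77% of all genes were, were Asns (1.03) and Pycr1 (0.86). In the siRNA by day interaction 12 were called higher, Chac1 with 3.03, and Ddit4 lower with -1.78. Of all genes, 2.9% were called higher and 2.71% lower in it. Atf4 itself was at 173 ± 3.85 TPM in si-CTL and 99.0 ± 1.72 TPM in si-Rsl24d1 cells at day 0 without rescue. Of 10 genes of the cystine and glutathione route beside Slc7a11, all tested, limma called 0 at day 0 without rescue, with 4 lower and 1 higher at the adjusted p alone and a median of -0.17.

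Among all genes tested, those whose 8 group means were most like a member were searched for the 3 members with the largest siRNA difference at day 0. For Slc1a4 they were Chek1, a checkpoint kinase (Pearson's r = 0.984), Triml2 (0.979) and Ghitm (0.976). For Slc7a1 they were Lars, the cytosolic leucyl-tRNA synthetase (0.986), Arl14ep (0.982) and Thoc5, a subunit of the THO complex (0.975). For Slc7a5 they were Cspg5, a chondroitin sulfate proteoglycan (0.989), Tmem125 (0.986) and Nup62, a nucleoporin (0.985). These values describe 8 points from the same libraries, picked as the highest of all genes.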

How the data were processed

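RNA-seq of 24 CGR8 libraries (8 groups of 3) was analysed from 1 deposited table of log2(TPM + 1) values, made by the authors with Salmon and tximport per the paper's methods, over 54242 gene symbols. TPM sums to 1000000 in every library, so read depth is not kept, no counting interval can be given, and precision rests on the 3 libraries. The sources differ on versions: the methods name GRCm38, whereas the submitters' processing notes name STAR 2.7.8a, Salmon 1.4.0 and GRCh38, a human build. Gene positions are from GENCODE on GRCm38.

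Group means were fitted in 1 model with limma 3.58.1 (trend) in R 4.3.3 over the 16447 genes with a mean of at least 0.5, and contrasted, with Benjamini-Hochberg adjustment within each comparison. A gene was called at an adjusted p below 0.01 and over 1.8-fold. The code was tested on simulated data. Ratios were compared with two-sided exact permutation tests. Alternatives were median of ratios scaling, 0.1 or 2 added to the TPM, no filter or one at a mean of 1.5, only the compared groups, the si-CTL cells without rescue as control for the rescue, a replicate block, no fold threshold and leaving out each library.

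The 10 members and Rsl24d1 were read in every comparison, but not every member is named in each one above. Of each list, up to 3 called genes per direction with the largest change are named. The members and lists were chosen with earlier results of these data known, from general knowledge of transporters. Pairing by replicate number was checked over all groups together and not found, and pairing within a day was not tested.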

Additional observations from a re-analysis of the deposited data

Results flagged for a closer look

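Without rescue, the siRNA difference was not the same on both days for 7 of the 9 transporters tested, by the siRNA by day interaction of limma at an adjusted p below 0.01. At day 4 the Rsl24d1 RNA itself no longer differed between the siRNAs (-0.04). The interaction (log2 of TPM + 1, day 4 minus day 0) was 1.61 for Slc7a1, 1.25 for Slc7a5, 1.21 for Slc1a4, 1.11 for Slc7a3, 0.99 for Slc6a9, 0.82 for Slc1a5 and 0.82 for Slc3a2, of which the last 2 were under 1.8-fold. Over all genes tested the median was 0.14. By the rescue interaction 0 transporters were picked out. Groups of 3 libraries were not searched for single outlying libraries.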

How the results depend on the processing

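Of 153 counts of called members recomputed under an alternative, 144 stayed within 1.5 times, and of 1377 member values 1306 kept their direction and their side of the threshold. With no fold threshold the called members went from 4 to 9 (siRNA at day 0), 2 to 8 (the same with rescue), 0 to 1 (rescue in si-Rsl24d1 cells), 0 to 3 and 0 to 2 (siRNA at day 4 without and with rescue), 5 to 8 and 2 to 6 (day with si-CTL and with si-Rsl24d1). Over all comparisons, 6 member values gained a call with 0.1 added to the TPM and 3 lost one with 2 added, so some calls depend on this constant. With 2 added, the siRNA comparison with rescue went from 2 to 1. Against the si-CTL cells without rescue as control, that comparison gave 5. Leaving out 1 library gave 3 to 4, 2 to 3 and 5 to 6 calls for the siRNA at day 0, the same with rescue and the siRNA by day interaction. Slc6a9 was the call lost (-0.81 without si-Rsl24d1 replicate 3). Slc1a5 (-0.85) was gained without si-CTL replicate 2, and in the interaction Slc1a5 (0.85 without day 0 si-CTL replicate 2, 0.87 without day 4 si-Rsl24d1 replicate 1) and Slc3a2 (0.90 without day 4 si-CTL replicate 2).

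Median of ratios scaling turned the sign of small differences: Slc7a5 (0.068), Slc1a4 (0.018) and Slc1a5 (0.054) for rescue in si-Rsl24d1 cells, Slc3a2 (0.031), Slc7a3 (0.022) and Slc43a1 (0.015) for rescue in si-CTL cells, Slc6a9 (-0.0055), Slc1a4 (-0.022) and Slc1a5 (-0.15) for the siRNA at day 4, Slc1a5 (0.019) for the same with rescue, Slc1a4 (0.041) for the day in si-CTL cells and Slc38a2 (-0.085) for the siRNA by day interaction. This follows from the shift of all genes by that scaling. Leaving out 1 library turned Slc1a5 (-0.027 to 0.050) and, with rescue, Slc1a5 (-0.087 to 0.058) and Slc38a2 (-0.020 to 0.14) for the siRNA at day 4, Slc38a2 (-0.0044 to 0.18) and Slc43a1 (-0.16 to 0.021) in the siRNA by day and Slc43a1 (-0.13 to 0.074) in the siRNA by rescue interaction.

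With the replicate number as a block, the calls were 4 for the siRNA at day 0, 2 with rescue, 5 and 2 for the days and 5 for the siRNA by day interaction, unchanged in these comparisons and in the others. Over all groups, residuals of same-numbered libraries had a mean correlation of -0.0173 (84 pairs), and those of other numbers 0.00865 (168 pairs). No pairing showed in this mean, which mixes the days, and pairing within a day was not tested. TPM keeps no depth, so the counting error of weakly expressed genes such as Slc7a11 and Slc6a9 cannot be given.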
